A study of Homo sapiens with 16 samples.

Results

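Cisplatin-resistant lung adenocarcinoma cells, the line A549/cDDP, were compared with the parental line A549 while both were in cisplatin. The comparison used 4 of the 16 RNA-seq libraries of the series, 2 of A549/cDDP and 2 of A549, chosen by line and treatment alone and without any measured value. A549 is an established human line from a lung adenocarcinoma. Its derivative A549/cDDP was kept in medium that itself held cisplatin at a labelled 15 mM. All 4 cultures received cisplatin at the labelled 15 mM for 24 h, without transfection, from 35000 cells seeded per well. The unit of that concentration stands as in the labels and was not checked. The same lines after 24 h in the cisplatin solvent, 2 libraries each, gave the reference for differences that were present without added drug. Libraries of A549/cDDP transfected with 12 pmol of a control gapmer (an antisense oligonucleotide) and then treated with cisplatin are set beside a few genes. The remaining libraries, of A549/cDDP with the control gapmer in solvent and with a gapmer labelled L2 in solvent or cisplatin, entered only the estimate of the spread. The labels describe each culture as an unsynchronized, heterogeneous population, and name no clone. They do not say whether the libraries of a group came from separate cultures, and p-values then reflect no more than how far these libraries lie apart, which may be technical.

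Cisplatin forms platinum adducts within and between DNA strands. Cells that sense them stabilise the transcription factor p53, which raises CDKN1A (the cyclin-dependent kinase inhibitor p21), MDM2 (the ubiquitin ligase that removes p53), repair genes and death genes, while genes of S phase and mitosis go down as the cycle stops. Resistance to platinum is known from reduced uptake or faster export, binding by thiols such as glutathione and metallothioneins, faster repair or tolerance of adducts, and weaker coupling of damage to apoptosis. The question the comparison asks is how the transcriptomes of both lines differ under the drug itself.

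Values are FPKM, fragments scaled to gene length and to library size, so levels can be compared between genes per length. Differences are A549/cDDP minus A549 on the scale log2(FPKM + 0.5), from limma fitted across the 17198 genes whose mean reached 0.5 FPKM. The words higher and lower are used for genes with a Benjamini-Hochberg adjusted p below 0.05, folds are ratios of mean FPKM, and ± after a mean is the SD of 2 libraries. Where the libraries of both lines are said to be apart or not to overlap, this only describes the values of that gene. The share of all genes without overlap was not counted. Depth estimated from the smallest values was 36080000 to 39240000 fragments in the 4 libraries. Replicates correlated across genes at 0.995 in A549 and 0.994 in A549/cDDP, with median absolute log2 differences of 0.075 and 0.092. Of 9 tested lung epithelium markers, 3 were higher in A549/cDDP (NKX2-1, AGER and ABCA3) and 4 lower (KRT7, KRT18, LAMP3 and EPCAM). The highest were keratins of simple epithelia. KRT7 stood at 3269 ± 3.58 FPKM in A549 against 2946 ± 42.6 in A549/cDDP, and KRT18 at 903 ± 13.9 and 629 ± 41.6. Of the 22 lung epithelium markers listed, 13 were below the filter, among them all surfactant genes and the club cell gene SCGB1A1. The lung lineage factor NKX2-1 was listed at 0 in A549 and at 1.04 and 1.34 FPKM in the A549/cDDP libraries. CDKN2A, CDKN2B and MTAP, neighbours on chromosome 9 that A549 is known to lack, summed to at most 0.558 FPKM in any of the 4 libraries.

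Both lines differed at 11437 genes in cisplatin. A549/cDDP was higher at 6363 genes, 37.0% of those tested, and lower at 5074, or 29.5%. At least 2-fold differences on the fitted scale were found at 1565 and 970 of them, and at least 8-fold differences at 68 and 76. The median of all genes was 0.08. The excess of higher calls depended on the scaling: 55.6% of calls were higher with FPKM as deposited, 47.5% after median ratio scaling (5433 higher, 6015 lower) and 50.4% after quantile normalization (5536 and 5443). Median ratio scaling moved the median to -0.007. Counts and medians of the gene lists below stand against these values of all genes: 37.0% higher, 29.5% lower and a median of 0.08 in cisplatin.

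Part of the difference was also found between the solvent cultures. In solvent, A549/cDDP was higher at 42.7% of the genes and lower at 27.5%. Of the 6363 genes higher in cisplatin, 4517 were also higher in solvent, and for 2694 of these the difference of both differences (the interaction term of the same fit) did not pass. Another 678 were lower in solvent, each with a called interaction. The remaining 1168 did not pass in solvent, and 671 of them had a called interaction. Of the 5074 lower genes, 2996 were lower in solvent too, 1647 of them without a called interaction. A further 949 were higher in solvent, each with a called interaction, and 1129 did not pass in solvent, 769 of them with one. Over all genes the interaction was called at 21.5% towards A549/cDDP and at 25.6% away from it. Genes with the same called direction in both conditions thus numbered 4517 higher and 2996 lower of 17198 tested. Counts of list members with the same direction in both conditions stand against these. The principal components of the 8 untransfected libraries separated the lines on the first (61.3% of the variance). On the next (29.5%), A549 went from scores of 43.55 and 43.29 in solvent to -51.78 and -53.07 in cisplatin, and A549/cDDP from 9.24 and 9.07 to 0.86 and -1.16.

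**Figure D1:**
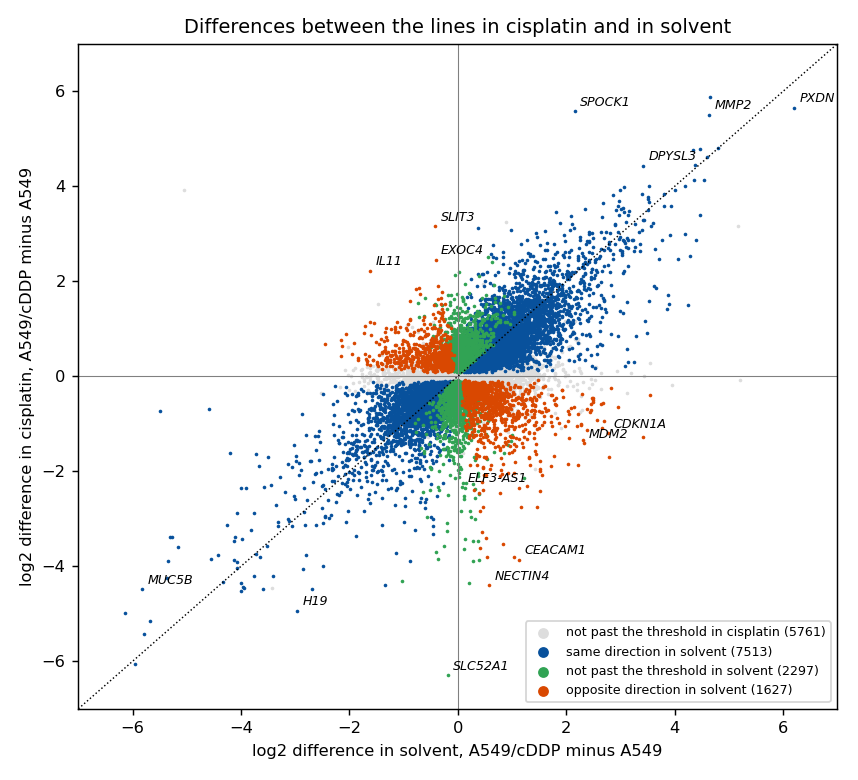
Difference between the lines in solvent (x axis) and in cisplatin (y axis), both as log2 differences, A549/cDDP minus A549, for 17198 genes. Points are coloured by the direction in solvent of genes that passed in cisplatin; the dotted line marks equal differences. CDKN1A and MDM2 lie in the lower right, higher in A549/cDDP in solvent and lower in cisplatin, while PXDN and MMP2 lie near the dotted line, and 1 gene lies outside the x range.

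The order of the lines at damage-induced genes depended on the drug. Of 40 genes listed as raised by p53 after damage, A549/cDDP was lower at 34 and higher at 4 in cisplatin (median -0.71), where 29.5% of all genes were lower and 37.0% higher. In solvent it was higher at all 40 (median 1.41), against 42.7% of all genes with a median of 0.15. The interaction was called away from A549/cDDP at all 40, against 25.6% of all genes. In mean FPKM, A549/cDDP in cisplatin lay between A549 in solvent and A549 in cisplatin at 35 of the 40, and above both at 5. These positions follow largely from the calls above and are no separate result, and their share over all genes was not counted.

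CDKN1A (ENSG00000124762, chromosome 6, 36676460 to 36687339) stood at 84.1 and 84.3 FPKM in A549 in solvent and 1636 and 1611 in cisplatin. In A549/cDDP it stood at 579.9 and 573 in solvent and 708 and 711 in cisplatin. The resistant line thus held several times the parental level in solvent and less than the parental level in cisplatin, with no overlap between the libraries in either condition. In cisplatin CDKN1A was 2.29-fold lower (log2 difference -1.19 ± 0.027 SE, limma adjusted p = 4.19e-12). The other main readout, MDM2 (ENSG00000135679, chromosome 12, 68808176 to 68850686), rose from 56.8 and 58.6 FPKM in A549 in solvent to 818 and 803 in cisplatin. The A549/cDDP libraries held 291 and 290 in solvent and 299 and 313 in cisplatin, so that the drug groups of the resistant line lay close together and far below A549 in cisplatin. MDM2 was 2.65-fold lower in cisplatin (log2 difference -1.41 ± 0.066 SE, limma adjusted p = 2.02e-09).

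GDF15, a secreted stress cytokine, had the widest difference of the list. Its libraries read 54.4 and 50.9 FPKM in A549 in solvent and 561 and 521 in cisplatin, against 111 and 107 in solvent and 135 and 129.6 in cisplatin in A549/cDDP (log2 difference -2.03 ± 0.052 SE, limma adjusted p = 1.32e-11). BTG2, an antiproliferative gene, followed at 128 and 129.5 FPKM in A549 against 33.9 and 36.2 in A549/cDDP in cisplatin (log2 difference -1.86 ± 0.05 SE, limma adjusted p = 1.93e-11). TP53I3, an oxidoreductase gene, stood at 1406 ± 80.8 FPKM in A549 against 534 ± 18.8 in A549/cDDP. FDXR, the ferredoxin reductase of mitochondria, was named after its values were seen. It stood at 41.1 and 41 FPKM in A549 in solvent, 577 and 580.5 in cisplatin, and 205 and 206 in solvent and 223 and 233 in cisplatin in A549/cDDP (log2 difference -1.34 ± 0.03 SE, limma adjusted p = 4.19e-12). In all 4 genes the A549/cDDP libraries lay in the gap between both A549 conditions. The members called higher, PERP, SPATA18, CCNG2 and ABCA12, had log2 differences of 0.17, 0.21, 0.30 and 0.31. None of the 4 passed after median ratio scaling, which left 0 higher and 35 lower. Only 2 of them passed without A549 replicate 1, without A549 replicate 2 or without A549/cDDP replicate 1.

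**Figure D2:**
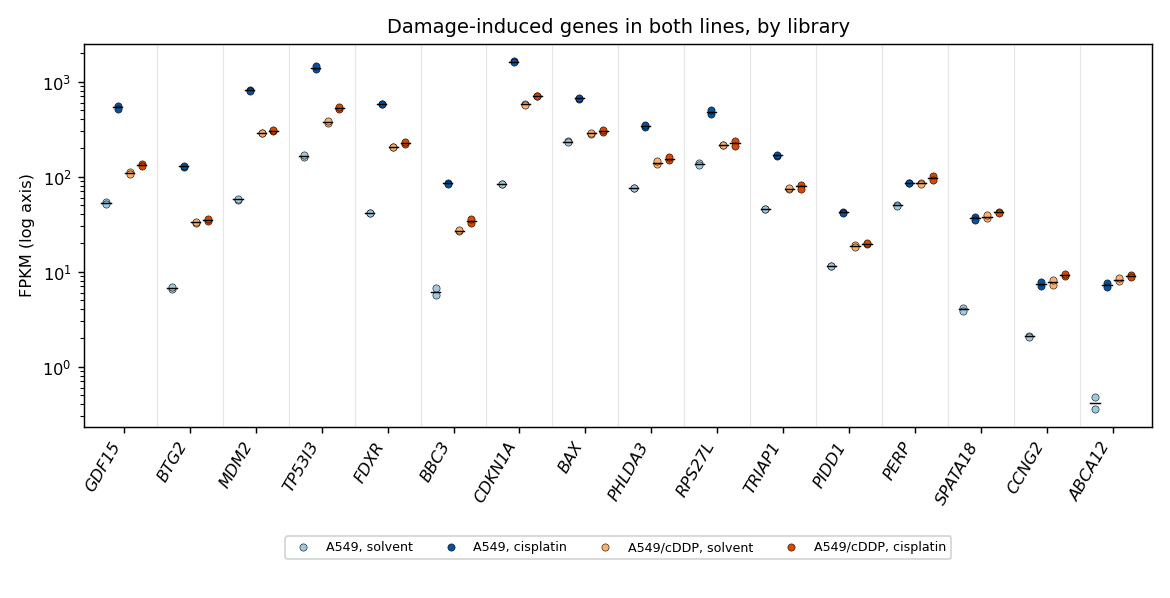
FPKM (log axis) of the 12 damage-induced genes with the lowest and the 4 with the highest difference between the lines in cisplatin, 1 point per library, 2 per group, with a bar at the group mean. For GDF15, BTG2, MDM2, TP53I3, FDXR, BBC3, CDKN1A and BAX the points of A549/cDDP, in solvent and in cisplatin, lie between those of A549 in solvent and A549 in cisplatin.

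The promoter of FDXR is shown because it carries a p53 half-site close to the start and FDXR is among the genes with the widest difference of the list. It comes from the RefSeq promoter table (GRCh38.p14, chr17:74872995-74873244, minus strand, the 250 bases before the start), with the half-site in capitals. Its first base lies 11 bases before the start.
FDXR: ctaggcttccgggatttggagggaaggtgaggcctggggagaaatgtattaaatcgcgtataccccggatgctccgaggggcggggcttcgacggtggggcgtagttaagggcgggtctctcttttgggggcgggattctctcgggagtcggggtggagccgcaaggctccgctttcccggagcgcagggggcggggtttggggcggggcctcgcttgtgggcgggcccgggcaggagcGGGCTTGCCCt
The p53 half-site, searched on both strands, was present in 5 of the 31 listed damage-induced genes with an entry in the table (ABCA12, AEN, FDXR, PLK2 and RPS27L), or 16.1%, against 5.5% of 27305 genes. A match of letters is no measured binding site. Of these 5, FDXR, RPS27L and AEN were lower in A549/cDDP in cisplatin, ABCA12 was higher and PLK2 did not pass.

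Checkpoint and cycle regulators around p53 did not share one direction. Of 22 checkpoint genes, 11 were higher and 5 lower (median 0.18), which is 50% and 22.7% against 37.0% and 29.5% of all genes. In solvent 5 were higher and 12 lower. Among those higher were MDC1 and H2AX, which mark broken chromatin, the kinase ATM and the checkpoint kinase CHEK1. MDC1 stood at 14.9 ± 0.304 FPKM in A549 against 26.9 ± 1.3 in A549/cDDP, and CHEK1 at 13 ± 0.291 and 19.8 ± 0.265. MDM4, the partner of MDM2, and HUS1, part of the checkpoint clamp, were lower, with log2 differences of -0.56 and -0.60. Of 21 cyclins, CDKs and their inhibitors, 12 were higher and 5 lower. The G1 cyclins CCND1, CCNE1 and CCND2 were higher: CCND1 read 417 and 412 FPKM in A549 against 925 and 953 in A549/cDDP, and CCNE1 14.6 and 14.2 in A549 and 29.6 and 30.1 in A549/cDDP. CCND3, by contrast, was 2.52-fold lower, and E2F7, a repressor of E2F targets, went from 33.9 ± 1.03 to 13.7 ± 0.534 FPKM.

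Mitosis genes were lower in A549/cDDP in solvent and divided in cisplatin. All 25 listed were lower in solvent (median -1.56), against 27.5% of all genes. In cisplatin 10 were higher, 4 lower and 11 did not pass (median 0.14). The 40.0% higher is close to the 37.0% of all genes, and 16% were lower against 29.5%. For 24 the interaction was called towards A549/cDDP, against 21.5% of all genes. PLK1, the mitotic kinase, was the member furthest above A549. It read 161 and 164 FPKM in A549 in solvent, 16.4 and 15.8 in cisplatin, and 48.2 and 48.7 in solvent and 31.4 and 30.3 in cisplatin in A549/cDDP (log2 difference 0.92 ± 0.043 SE, limma adjusted p = 2.09e-09). The resistant line thus held less PLK1 than the parental line in solvent and more in cisplatin, with no overlap either time. CCNB1, the mitotic cyclin, was named after its values were seen and showed the same order, with 230.4, 50, 96.7 and 64.1 FPKM in the same order of groups. KIF20A, a kinesin of cytokinesis, and CDK1, the mitotic kinase subunit, did not turn. KIF20A read 67.8 and 69.3 FPKM in A549 in solvent, 54.6 and 55.7 in cisplatin, and 22.6 and 22.2 in solvent and 13.7 and 13.8 in cisplatin in A549/cDDP (log2 difference -1.96 ± 0.092 SE, limma adjusted p = 2.05e-09). CDK1 stood at 47.6 ± 1.51 FPKM in A549 against 24.2 ± 1.63 in A549/cDDP in cisplatin. In bulk RNA, fewer cells in a phase and less RNA per cell cannot be told apart.

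The promoters of PLK1 and KIF20A, the mitosis genes at either end, are printed from the same RefSeq table, with the letters of the CCAAT box (ATTGG on the other strand) and of the cell cycle homology region (TTTGAA, or TTCAAA on the other strand) in capitals. The PLK1 window is chr16:23678639-23678888 and the KIF20A window chr5:138178862-138179111, both on the plus strand and 250 bases long.
PLK1: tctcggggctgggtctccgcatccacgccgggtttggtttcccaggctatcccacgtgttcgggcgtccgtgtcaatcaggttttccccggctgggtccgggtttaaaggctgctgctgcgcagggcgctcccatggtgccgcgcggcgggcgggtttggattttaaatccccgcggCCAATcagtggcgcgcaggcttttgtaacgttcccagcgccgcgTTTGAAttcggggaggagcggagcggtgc
KIF20A: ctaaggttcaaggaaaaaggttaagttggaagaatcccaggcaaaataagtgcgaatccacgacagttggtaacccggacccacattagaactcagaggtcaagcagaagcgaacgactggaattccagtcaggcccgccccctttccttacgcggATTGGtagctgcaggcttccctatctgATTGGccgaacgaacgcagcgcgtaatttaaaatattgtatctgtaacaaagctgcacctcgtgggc
In PLK1 the CCAAT box begins 73 bases and TTTGAA 29 bases before the start. In KIF20A the reversed CCAAT box begins 94 and 67 bases before the start, and TTTGAA is not among these letters. Of 22 mitosis genes with an entry, 19 (86.4%) held a CCAAT box and 12 (54.5%) TTTGAA, against 33.0% and 13.6% of 27305 genes. KIF20A, which stayed lower, and PLK1, which turned, thus both held the CCAAT box.

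S phase genes were divided in cisplatin too, with a larger share higher. Of 34, 33 were lower in A549/cDDP in solvent, against 27.5% of all genes. In cisplatin 19 were higher and 10 lower (median 0.23), or 55.9% and 29.4% against 37.0% and 29.5% of all genes. After median ratio scaling 15 were higher and 12 lower. MCM3 and MCM2, subunits of the replicative helicase, were higher. MCM3 read 13.7 and 13.6 FPKM in A549 against 26.5 and 26.5 in A549/cDDP in cisplatin, and MCM2 14.9 and 13.9 in A549 and 25 and 24.1 in A549/cDDP, so that the lines did not overlap. In solvent their log2 differences were -1.11 and -1.36. The members that stayed lower included PCNA, the sliding clamp and a known p53 target, and LIG1, the replicative ligase. PCNA stood at 462 ± 3.1 FPKM in A549 against 177 ± 14 in A549/cDDP (log2 difference -1.39 ± 0.044 SE, limma adjusted p = 7.12e-11), and LIG1 at 64.6 ± 1.85 and 28.2 ± 1.35.

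Repair of platinum lesions was described by role. Of 28 genes of the Fanconi anaemia pathway and homologous recombination, which undo crosslinks between strands, 13 were higher and 5 lower (median 0.16), or 46.4% and 17.9%. In solvent 3 were higher and 19 lower. BRCA1, a core gene of homologous recombination, read 52.1 and 54.7 FPKM in A549 in solvent and 13.6 and 13.7 in cisplatin. A549/cDDP read 42.3 and 44.9 in solvent and 33.6 and 33.4 in cisplatin, and its libraries were well above those of A549 in cisplatin (log2 difference 1.26 ± 0.039 SE, limma adjusted p = 6.44e-11, interaction 1.55, limma adjusted p = 8.21e-10). RAD51B and EME1 were higher too, at 3.08 ± 0.573 and 17 ± 0.878 FPKM against 1.1 ± 0.0986 and 9.58 ± 1.09. UBE2T, the conjugating enzyme of FANCD2, was lower, with a log2 difference of -0.74. FANCD2, named after its values were seen, had 13.5 FPKM in A549 and 14.8 in A549/cDDP and did not pass (limma adjusted p = 0.0712), but passed without A549 replicate 1 (0.21). The count of lower members went to 2 or 3 in the fit of the 4 libraries alone, without a filter on low values and without any 1 of the 4 libraries.

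Nucleotide excision repair, which removes adducts within a strand, leaned the other way: 6 of 27 genes were higher and 14 lower (median -0.13), or 22.2% and 51.9%. The lesion sensors XPC and DDB2, both known p53 targets, were higher in A549/cDDP in solvent and lower in cisplatin. XPC stood at 207 ± 0.484 FPKM in A549 against 138 ± 6.74 in A549/cDDP in cisplatin (log2 difference -0.58 ± 0.069 SE, limma adjusted p = 1.03e-05), and DDB2 at 219.7 ± 4.31 and 158 ± 0.872 (log2 difference -0.47 ± 0.031 SE, limma adjusted p = 4.57e-08). ERCC1, part of the nuclease often discussed for platinum, was named after its values were seen, with 90.3 and 87.6 FPKM in A549 against 65.2 and 70.2 in A549/cDDP (log2 difference -0.39 ± 0.048 SE, limma adjusted p = 1.35e-05). Its partner ERCC4 was higher by 0.29, and ERCC6, of transcription-coupled repair, by 0.61. Of 18 translesion polymerases and mismatch repair genes, 6 were higher and 5 lower, shares of 33.3% and 27.8% that are near those of all genes. The counts were 5 and 8 after median ratio scaling, and without any 1 of the 4 libraries the lower count was 2 or 3. POLH, the polymerase that copies past platinum adducts, was lower (41.7 ± 0.071 and 20.4 ± 0.636 FPKM), and POLI and POLQ were higher by 0.80 and 0.71.

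Of 31 apoptosis regulators, 12 were higher and 16 lower in cisplatin (median -0.20), where 19 had been higher and 8 lower in solvent. Genes that promote death through mitochondria were among the lower ones. BBC3, which encodes PUMA, read 86.4 and 83.2 FPKM in A549 against 32.8 and 35.6 in A549/cDDP (log2 difference -1.30 ± 0.11 SE, limma adjusted p = 3.63e-07). BAX, the pore former, read 657 and 675 in A549 and 294 and 308 in A549/cDDP (log2 difference -1.14 ± 0.043 SE, limma adjusted p = 2.93e-10), and APAF1, the apoptosome scaffold, stood at 38.8 ± 0.692 and 16 ± 0.975. The libraries of both lines were apart at each of the 3 genes, which was not counted over all genes. Protective members went both ways. BCL2A1, an antiapoptotic BCL2 relative, was 6.26-fold lower (26.7 ± 2.29 and 4.26 ± 0.0736 FPKM). BIRC5, survivin, which also serves in mitosis, was higher, with 27.2 and 28.4 FPKM in A549 against 61.6 and 54.9 in A549/cDDP (log2 difference 1.05 ± 0.092 SE, limma adjusted p = 6.14e-07). BMF, a proapoptotic BH3-only gene, was higher at low levels (0.235 ± 0.00213 and 1.5 ± 0.291 FPKM).

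Of 23 genes of platinum entry and export, 10 were higher and 7 lower (median 0.17), and 8 and 5 of these had the same direction in solvent. These shares, 43.5% and 30.4%, are near the 37.0% and 29.5% of all genes. SLC31A1, the copper transporter CTR1 through which cisplatin can enter, was named after its values were seen. It read 23.5 and 24.3 FPKM in A549 against 22.5 and 22.4 in A549/cDDP and did not pass (log2 difference -0.088 ± 0.045 SE, limma adjusted p = 0.102), though it passed as lower after median ratio scaling (-0.19). LRRC8A, the core subunit of the volume-regulated anion channel that admits platinum drugs, was higher, at 23.1 ± 1.11 and 47 ± 3.72 FPKM, as was LRRC8C, another subunit, by 1.19. Among exporters, ABCC3 read 298 and 279 FPKM in A549 against 498 and 544 in A549/cDDP (log2 difference 0.85 ± 0.047 SE, limma adjusted p = 8.84e-09). The breast cancer resistance transporter ABCG2 was 4.95-fold lower (27.3 ± 0.924 and 5.53 ± 0.369 FPKM). The copper pump ATP7A went from 5.96 ± 0.013 to 2.57 ± 0.175 FPKM, whereas the copper chaperone ATOX1 was higher by 0.70. ABCB1, the classic multidrug pump, stood below 1 FPKM in both lines and did not pass (log2 difference 0.28 ± 0.17 SE, limma adjusted p = 0.149).

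Metallothioneins, small cysteine-rich proteins that bind metals and platinum, are near-identical copies, so the share of reads given to each is uncertain. Only 4 of 10 passed the filter on low values. MT2A read 247 and 246 FPKM in A549 in solvent, 246 and 269.8 in cisplatin, and 379 and 389 in solvent and 449 and 452 in cisplatin in A549/cDDP, whose libraries were above those of A549 in both conditions (log2 difference 0.81 ± 0.06 SE, limma adjusted p = 1.23e-07). MT1X was higher (1.1 ± 0.132 and 2.22 ± 0.398 FPKM), MT1F did not pass, and MT1A was listed at 0 in both A549/cDDP libraries, against 8.83 and 12 FPKM in A549. Against the level that 3 reads over both libraries would give, MT1A was at least 104-fold lower. The count of lower members was 2 in place of 1 after median ratio scaling, quantile normalization, with a pseudocount of 1, with a replicate block and without A549 replicate 2 or A549/cDDP replicate 1. With a mean of at least 2 FPKM required, 1 was higher in place of 2. The MT2A promoter is shown because it carries 7 metal elements (TGCACNC or TGCGCNC, both strands, in capitals); its window is chr16:56608334-56608583, plus strand, 250 bases.
MT2A: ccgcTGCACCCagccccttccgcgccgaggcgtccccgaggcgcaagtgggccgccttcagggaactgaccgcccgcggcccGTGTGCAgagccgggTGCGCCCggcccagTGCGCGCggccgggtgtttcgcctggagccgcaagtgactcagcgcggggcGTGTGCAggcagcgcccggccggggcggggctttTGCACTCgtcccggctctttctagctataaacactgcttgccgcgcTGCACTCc
All 4 of the 10 metallothioneins with an entry (MT1B, MT1H, MT1X and MT2A) held the element, against 24.7% of 27305 genes. Its matches in MT2A begin between 246 and 8 bases before the start.

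Of 33 NRF2 targets and detoxification genes, 12 were higher and 17 lower (median -0.12), or 36.4% and 51.5%. A549 carries an inactivated KEAP1 and is known for high NRF2 activity. SLC7A11, the cystine importer that feeds glutathione synthesis, was the furthest above A549, with 70.5 and 69.4 FPKM in A549 against 218 and 221 in A549/cDDP (log2 difference 1.65 ± 0.042 SE, limma adjusted p = 1.26e-11). OSGIN1, an oxidative stress gene, was higher by 1.13. The aldo-keto reductases were lower: AKR1B10 stood at 5304 ± 13.5 FPKM in A549 against 1538 ± 168 in A549/cDDP, and AKR1C3, named after its values were seen and hard to separate from its close copies, at 964 ± 8.85 and 346 ± 39.3. The glutathione transferase GSTM3 was 25.3-fold lower, from 4.76 ± 0.268 FPKM to 0.188 ± 0.0237, a level near 0. The extracellular peroxidase GPX3 went from 51 ± 3.45 to 14.7 ± 0.732 FPKM. NQO1, a common NRF2 readout, was named after its values were seen and did not pass (1104 ± 1.19 and 1030 ± 58.7 FPKM, limma adjusted p = 0.141), though it passed as lower after median ratio scaling (-0.21).

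Among the widest differences between the lines were some matrix genes, beside genes of other roles. Of the 24 genes chosen by size, all but SLC52A1 were called in the same direction in solvent. PXDN, the peroxidase that crosslinks collagen IV, read 3.35 and 3.14 FPKM in A549 against 185 and 192 in A549/cDDP in cisplatin, a 58-fold difference, after 2.14 and 195 in solvent (log2 difference 5.66 ± 0.067 SE, limma adjusted p = 4.07e-14). MMP2, the gelatinase, read 1.29 and 1.11 in A549 and 76.6 and 76.9 in A549/cDDP, and MMP9, its relative, 0.364 and 0.36 in A549 and 22 and 25.5 in A549/cDDP (log2 difference 4.81 ± 0.082 SE, limma adjusted p = 6.89e-13). SPOCK1, a matrix proteoglycan, read 9.36 and 8.51 FPKM in A549 in solvent and 0.511 and 0.464 in cisplatin, while A549/cDDP held 43 and 40 in solvent and 45.4 and 48.1 in cisplatin. SPOCK1 is the gene of these 4 whose difference widened most in the drug (interaction 3.42, limma adjusted p = 8.21e-10), and the level that moved was that of A549. MAP2, a microtubule protein best known from neurons, stood at 0.242 ± 0.044 and 43 ± 0.81 FPKM (log2 difference 5.88 ± 0.09 SE, limma adjusted p = 2.8e-13), and DPYSL3, a regulator of the cytoskeleton, at 11.2 ± 0.215 and 251 ± 5.59. ESM1, a secreted proteoglycan, PKIA, an inhibitor of protein kinase A, PARP8 and the zinc finger gene ZNF91 were below 1 FPKM in A549 and between 11 and 14.7 FPKM in A549/cDDP. At all 12 genes with the widest positive differences the libraries of the lines did not overlap, by the rule that chose them.

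In the other direction, SLC52A1, a riboflavin transporter, had the widest difference of all the named genes on the fitted scale but not by fold. It read 0.334 and 0.348 FPKM in A549 in solvent and 63.2 and 60.1 in cisplatin, and 0.245 and 0.238 in solvent and 0.252 and 0.339 in cisplatin in A549/cDDP (log2 difference -6.29 ± 0.13 SE, limma adjusted p = 3.13e-12). The solvent difference did not pass (log2 difference -0.18, limma adjusted p = 0.239), and 3 of the 4 groups stood below 1 FPKM. The tetraspanin relatives TM4SF4 and TM4SF20, the neuropeptide NTS and MTUS1, a microtubule-associated gene, were lower in both conditions. TM4SF4 read 75.4 and 67.3 FPKM in A549 against 0.744 and 0.447 in A549/cDDP in cisplatin, and NTS 18 and 17.3 in A549 and 0.0242 and 0 in A549/cDDP. H19, an imprinted noncoding RNA, read 5.77 and 5.62 FPKM in A549 in solvent and 23.4 and 25.8 in cisplatin, while all 4 A549/cDDP libraries stood below 0.4 FPKM (log2 difference -4.94 ± 0.12 SE, limma adjusted p = 1.04e-11). VAMP8, of secretory vesicle fusion, had the same form. Its means in solvent and in cisplatin were 18.7 and 69.4 FPKM in A549 and 2.49 and 2.62 in A549/cDDP. SELENBP1, a selenium-binding oxidase, KRT4, a keratin of squamous epithelia, and the noncoding RNA LNCAROD were also among these 12, with folds of 213, 115 and 29. The folds of SELENBP1 and KRT4 are imprecise, as their A549/cDDP means in cisplatin were 0.0581 and 0.112 FPKM.

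**Figure D3:**
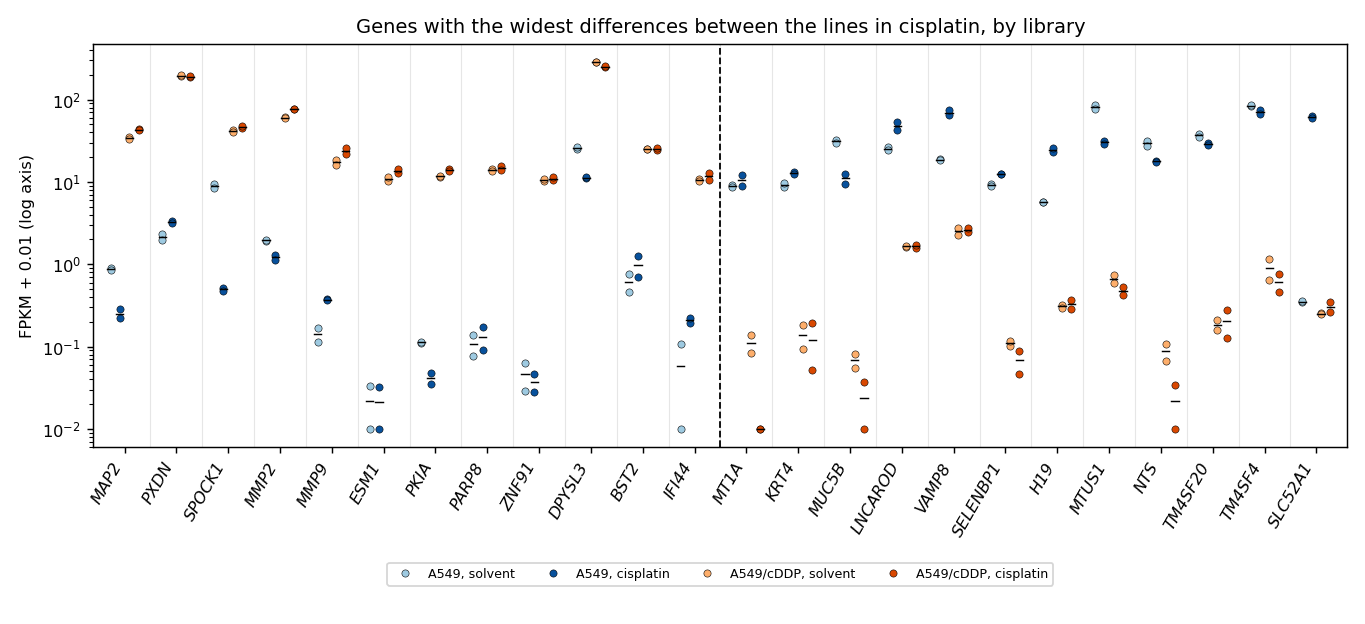
FPKM plus 0.01 (log axis) of the 12 genes furthest above (left of the dashed line) and the 12 furthest below A549 in cisplatin, 1 point per library, 2 per group, with a bar at the group mean. For many genes the solvent and cisplatin points of a line lie near each other. SPOCK1 and SLC52A1 move furthest with the drug in A549 and little in A549/cDDP, and others, such as H19, VAMP8 and MTUS1, move less far in A549.

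Matrix genes were mostly higher. Of 31 collagens, laminins and basement membrane genes, 25 were higher and 4 lower (median 1.03). Of the 31, 21 were higher in both conditions, against 4517 of all 17198 genes. COL6A2 and COL6A1, chains of collagen VI, read in turn 7.13 ± 0.236 and 16.6 ± 0.609 FPKM in A549 and 109.6 ± 9.47 and 193 ± 10.9 in A549/cDDP. LAMA3, a laminin chain of epithelial basement membrane, was 14.2-fold higher. COL4A1, named after its values were seen, stood at 23.7 ± 0.695 and 175 ± 11.2 FPKM. The exceptions included COL17A1, the hemidesmosomal collagen. Its means in solvent and in cisplatin were 2.37 and 13.2 FPKM in A549 and 6.9 and 7.11 in A549/cDDP. COL17A1 was thus higher in solvent and lower in cisplatin. Of 23 matrix proteases and inhibitors, 17 were higher and 5 lower (median 0.96). ADAM19 went from 2.27 ± 0.0842 to 25.1 ± 2.91 FPKM, and the inhibitor TIMP4 was lower, at 16.6 ± 0.34 and 2.37 ± 0.0947. Of 20 integrins and their adaptors, 16 were higher and 1 lower (median 0.89). The fibronectin and collagen receptors ITGAV and ITGA2 stood at 130.2 ± 3.22 and 23.4 ± 0.191 FPKM in A549 and 510.4 ± 6.36 and 109.5 ± 1.96 in A549/cDDP. ITGB1, the common beta chain, was named after its values were seen. It read 2467 and 2447 FPKM in A549 in solvent and 1262 and 1244 in cisplatin, and 2560 and 2567 in solvent and 2673 and 2617 in cisplatin in A549/cDDP, so the lines were apart in the drug, and the solvent difference of 0.061 did not pass. The integrin called lower was ITGB7, at 1.56 ± 0.153 and 0.961 ± 0.0912 FPKM, and it did not pass without A549 replicate 2 or without A549/cDDP replicate 2.

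Of 26 mesenchymal genes and factors of the epithelial-mesenchymal transition, 19 were higher and 3 lower (median 0.72), or 18 and 5 after median ratio scaling. The factors TWIST1 and SNAI2 stood at 1.19 ± 0.26 and 0.748 ± 0.0111 FPKM in A549 and 8.98 ± 0.532 and 3.09 ± 0.376 in A549/cDDP. CDH2, N-cadherin, read 14.6 and 15.5 FPKM in A549 against 71.4 and 74.9 in A549/cDDP (log2 difference 2.25 ± 0.044 SE, limma adjusted p = 1.93e-12). VIM, the intermediate filament vimentin, was named after its values were seen. It stood at 805 FPKM in solvent and 436 in cisplatin in A549, and at 1117 in solvent and 1223 in cisplatin in A549/cDDP. VIM was higher by 1.49 in cisplatin and 0.47 in solvent. S100A4, a calcium-binding gene of motile cells, and TGFBR1, a TGF-beta receptor, were lower, with log2 differences of -1.57 and -1.27. Fibroblast markers were measured beside these genes. Their sum over 8 genes was 9.57 to 9.88 FPKM in A549 and 44.4 to 55.1 in A549/cDDP, of which COL1A1 alone made up to 52.7, and only COL1A1 and THY1 passed the filter, with COL1A2, COL3A1, DCN, LUM, PDGFRA and PDGFRB below it.

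Epithelial genes were mostly lower. Of 28 genes of adhesion and keratins, 5 were higher and 21 lower (median -0.80). Of the 28, 15 were lower in both conditions, against 2996 of all 17198 genes. CDH1, E-cadherin, read 14.5 and 14.5 FPKM in A549 in solvent, 13.5 and 12 in cisplatin, and 3.02 and 2.83 in solvent and 2.61 and 2.02 in cisplatin in A549/cDDP (log2 difference -2.24 ± 0.096 SE, limma adjusted p = 9.25e-10). NECTIN4, an adhesion receptor, and CEACAM1, a cell adhesion receptor of the carcinoembryonic family, belonged to another kind. NECTIN4 read 0.338 and 0.482 FPKM in A549 in solvent and 41.2 and 42 in cisplatin, and 0.864 and 0.841 in solvent and 1.53 and 1.46 in cisplatin in A549/cDDP. The A549 libraries in cisplatin stood far above the other 6 at NECTIN4, and the lines were in the opposite order in solvent. The pattern of CEACAM1 was alike, with 2.64, 125, 6.41 and 8.12 FPKM as group means in the same sequence. The junction genes DSC2, OCLN and DSG2 were higher, by 1.41, 0.96 and 0.88. Of 13 mucins and secretory products that passed the filter on low values, of 22 listed, 10 were lower and 3 higher, with 9 lower in solvent; with a mean of at least 2 FPKM required, 6 were lower. MUC5B and MUC5AC, the gel-forming airway mucins, stood at 11.1 ± 2.23 and 7.24 ± 1.14 FPKM in A549 and below 0.1 in A549/cDDP. AGR2, their folding factor, read 194 and 184 in A549 and 12.6 and 9.6 in A549/cDDP. SPDEF, a factor of goblet cells, was 42.3-fold lower, from 3.25 ± 0.124 FPKM to 0.0769 ± 0.0254, a level near 0. MUC1, a transmembrane mucin, was higher by 0.53.

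ELF3, an epithelial transcription factor, and ELF3-AS1, the antisense gene for which RefSeq gives SCAT7 as another name, lie together on chromosome 1 and share 2519 bp. Whether reads were counted by strand is not given in the sources used here, so their reads cannot be told apart in that stretch. ELF3-AS1 (ENSG00000234678, chromosome 1, 201995696 to 202010463) read 2.97 and 3.27 FPKM in A549 in solvent and 15.2 and 13.2 in cisplatin, and 2.89 and 3.79 in solvent and 2.41 and 2.41 in cisplatin in A549/cDDP. Only the A549 libraries in cisplatin stood apart, and the gene was 5.89-fold lower in A549/cDDP (log2 difference -2.33 ± 0.17 SE, limma adjusted p = 8.7e-08), with no called difference in solvent. A549/cDDP with the control gapmer in cisplatin held 3.73 and 3.23 FPKM. ELF3 (ENSG00000163435, chromosome 1, 202007945 to 202017188) read 101 and 98.6 FPKM in A549 against 28 and 25.1 in A549/cDDP in cisplatin (log2 difference -1.89 ± 0.058 SE, limma adjusted p = 5.82e-11) and was also lower in solvent. HNRNPK and YBX1, RNA-binding proteins, were lower, with log2 differences of -0.25 and -0.46. Both were also lower in solvent, with differences of -0.47 and -0.48, and the interaction was called at HNRNPK (0.23) but not at YBX1. TOP1, the topoisomerase that relaxes DNA ahead of forks, read 49.4 and 49.6 FPKM in A549 against 42.7 and 41.7 in A549/cDDP, a log2 difference of -0.23. In solvent TOP1 read 42.6 and 43.3 FPKM in A549 and 44.2 and 48.3 in A549/cDDP, and passed narrowly as higher (limma adjusted p = 0.0443).

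Inflammatory genes divided by condition. Of 29 NF-kB targets, cytokines and chemokines, 11 were higher and 13 lower in cisplatin (7 and 15 after median ratio scaling), while 21 were higher and 4 lower in solvent. IL6 was higher in both, with 1.21 and 0.978 FPKM in A549 against 13.7 and 11 in A549/cDDP in cisplatin (log2 difference 3.0 ± 0.14 SE, limma adjusted p = 1.85e-09). IL11, its relative, turned the other way round from the damage genes: it read 46.3 and 46.7 FPKM in A549 in solvent and 3.87 and 3.78 in cisplatin, against 14.6 and 15 in solvent and 18.4 and 21 in cisplatin in A549/cDDP. PTGS2, the inducible cyclooxygenase, read 53.4 and 51.2 in A549 and 2.92 and 2.7 in A549/cDDP (log2 difference -4.0 ± 0.1 SE, limma adjusted p = 1.2e-11), and the adhesion molecule ICAM1 stood at 9.79 ± 0.289 and 0.284 ± 0.0882 FPKM. The acute phase gene SAA1, counted beside its near-identical copy SAA2, read 22.1 and 25 FPKM in A549 in cisplatin and 1.1 and 1.33 in A549/cDDP. CXCL8, the neutrophil chemokine, named after its values were seen, did not pass in cisplatin (106 ± 0.291 and 108 ± 8.19 FPKM, log2 difference 0.025 ± 0.078 SE, limma adjusted p = 0.801) after a solvent difference of 2.04.

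Of 28 interferon response genes, 11 were higher and 8 lower (median 0.33), or 39.3% and 28.6%, near the shares of all genes. BST2, tetherin, read 0.682 and 1.26 FPKM in A549 against 24.1 and 25.7 in A549/cDDP, and the RNA sensors IFIH1 and RIGI were higher by 1.76 and 1.52. IFI44 stood at 0.2 ± 0.0199 FPKM in A549 against 11.8 ± 1.63 in A549/cDDP, and at 142 ± 5.67 in the control gapmer libraries in cisplatin, so its level in the resistant line was not the same with and without transfection. OAS1 and ISG15 were lower, at 50.6 ± 2.08 and 34.3 ± 4.01 FPKM in A549 and 11.7 ± 0.973 and 14.7 ± 1.47 in A549/cDDP. Of 16 genes of MHC class I presentation, 6 were higher and 3 lower (37.5% and 18.8%), against 14 and 1 in solvent. HLA-B stood at 17.4 ± 0.938 and 53.1 ± 2.98 FPKM and TAPBP at 51.4 ± 4.21 and 91.7 ± 4.18, whereas TAP1, the peptide transporter, was lower, with a log2 difference of -0.60. Fits of the 4 libraries alone or of the 8 untransfected libraries called 11 of the 16 higher, and HLA genes are similar enough that their reads may be shared.

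Stress genes that follow ATF4 or the unfolded protein response split into 8 higher and 10 lower of 21. The proapoptotic factor DDIT3 read 82.8 and 83.7 FPKM in A549 against 21.2 and 21.2 in A549/cDDP (log2 difference -1.95 ± 0.11 SE, limma adjusted p = 1.03e-08), and ATF3 stood at 40.2 ± 1.21 and 14.6 ± 0.578. Both were higher in A549/cDDP in solvent, by 1.51 and 1.44. STC2, a secreted glycoprotein, and HERPUD1, of protein quality control in the endoplasmic reticulum, were higher, by 1.80 and 0.96. Immediate early genes split into 9 higher and 10 lower of 21. JUN and JUNB were at 17.7 ± 0.836 and 35.9 ± 0.189 FPKM in A549 and 35.5 ± 3.06 and 73.1 ± 3.44 in A549/cDDP, and the phosphatase gene DUSP5 and the nuclear receptor NR4A1 were lower, with log2 differences of -2.26 and -2.27.

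Genes of lipid synthesis were mostly higher. Of 24 cholesterol genes, 16 were higher and 7 lower (median 0.55), and of 11 fatty acid genes 10 were higher and 1 did not pass (median 0.67). MSMO1, SQLE and LSS, enzymes of the later steps from squalene, stood at 18.5 ± 0.05, 44.4 ± 0.71 and 13.3 ± 0.0837 FPKM in A549 and 64.7 ± 5.53, 124 ± 2.39 and 39.6 ± 0.01 in A549/cDDP, where SQLE was named after its values were seen. SCD, the stearoyl desaturase, read 60.8 and 59.4 FPKM in A549 in solvent and 25.4 and 23.9 in cisplatin, and 69.2 and 67.8 in solvent and 68.5 and 65.9 in cisplatin in A549/cDDP (log2 difference 1.43 ± 0.063 SE, limma adjusted p = 1.18e-09, interaction 1.24). TM7SF2 and HSD17B7, also of sterol synthesis, were higher in solvent and lower in cisplatin. Hypoxia and glycolysis genes were lower at 16 and higher at 6 of 29 (18 and 3 after median ratio scaling). PGK1, a glycolytic kinase, stood at 399.6 ± 4.15 and 159.7 ± 8.03 FPKM and PFKFB3, a glycolysis activator, at 202 ± 0.881 and 70.3 ± 1.01, while the glucose transporter SLC2A3 was higher by 1.28. YAP targets were lower at 12 and higher at 1 of 15. ANKRD1 read 27.3 and 31.8 FPKM in A549 against 6.3 and 5.92 in A549/cDDP, CCN1 99.9 and 108 in A549 and 52.5 and 51.9 in A549/cDDP, and the member called higher was PTPN14. Of 31 receptor tyrosine kinases and ligands, 18 were higher and 11 lower. The ephrin receptor EPHB2 went from 6.5 ± 0.223 to 47 ± 1.77 FPKM and the ligands EREG and VEGFC were higher by 1.57 and 2.17, against ERBB3 and FGFR3, which were lower, with log2 differences of -1.93 and -1.59. EGFR, named after its values were seen, stood at 179 ± 3.54 and 137 ± 5.52 FPKM (log2 difference -0.38 ± 0.042 SE, limma adjusted p = 4.8e-06).

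**Figure D4:**
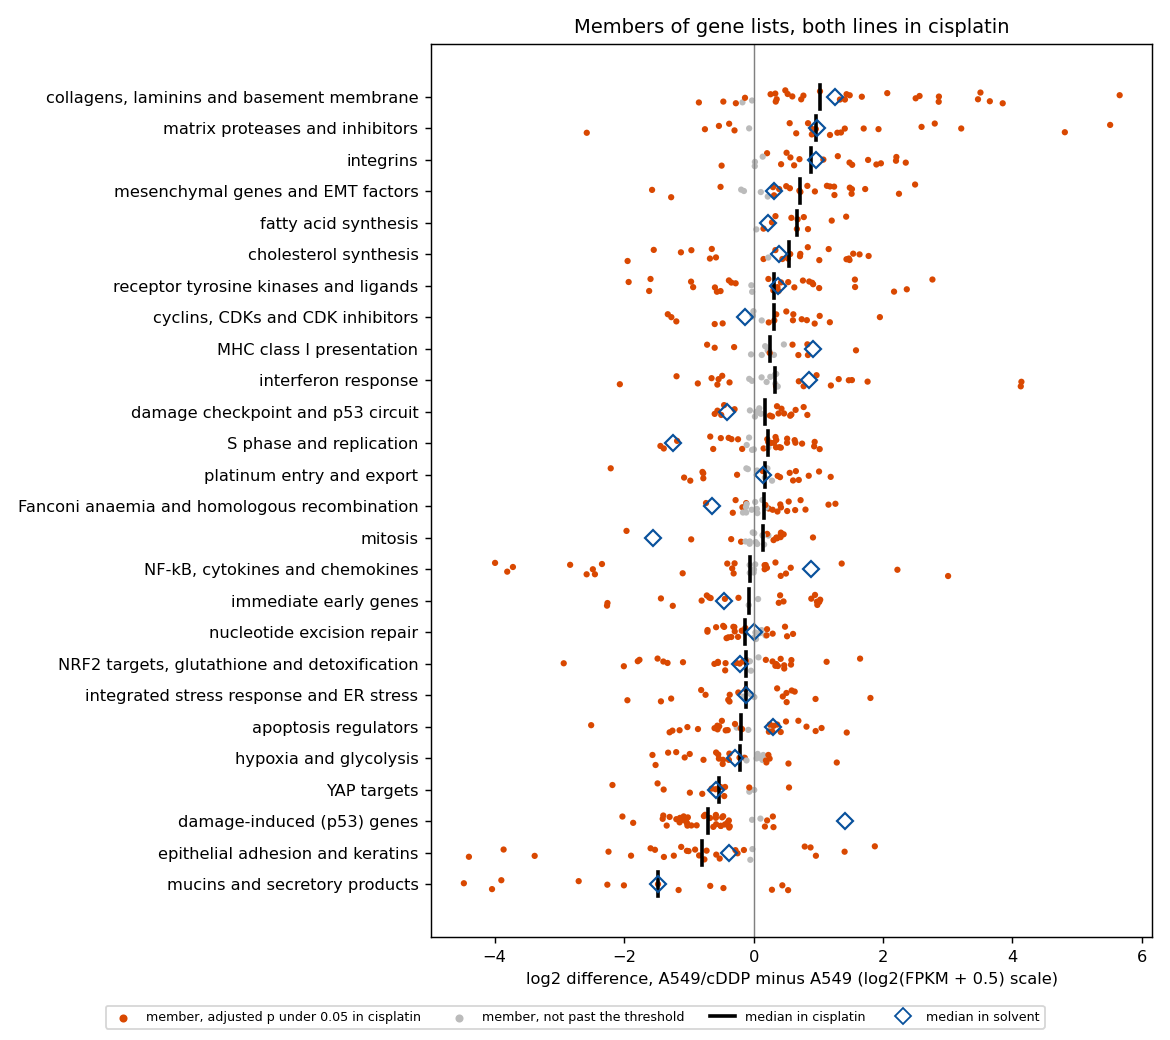
Log2 difference between the lines in cisplatin for each tested member of 26 gene lists, A549/cDDP minus A549; orange points passed an adjusted p of 0.05, black bars are medians in cisplatin and open diamonds medians in solvent. The damage-induced genes have a median of -0.71 in cisplatin and 1.41 in solvent, and the mitosis genes 0.14 and -1.56, while for the matrix, integrin and mucin lists the bar and the diamond lie close. Their members still moved: the interaction was called towards and away from A549/cDDP at 14 and 13 of 31 collagens and laminins. It was called at 10 and 5 of 23 proteases, 8 and 7 of 20 integrins and 4 and 4 of 13 mucins, against 21.5% and 25.6% of all genes.

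Outside these lists, the genes with the widest opposite differences in both conditions were named by rule. Lower in cisplatin and higher in solvent were GRHL3, an epidermal transcription factor, RRAD, a GTPase of the RAS family, SERPINF1, a secreted serpin, PTAFR, the receptor of platelet-activating factor, and DQX1, a putative helicase. GRHL3 read 0.401 and 0.494 FPKM in A549 in solvent and 22.9 and 21.9 in cisplatin, and 0.984 and 0.765 in solvent and 1.18 and 1.13 in cisplatin in A549/cDDP. RRAD had group means of 1.81, 50.1, 3.64 and 3.92 FPKM in the same order. In each, the A549 libraries in cisplatin stood far above the other 6. Among genes that did not pass in solvent, PGF, the placental growth factor, stood at 20.3 ± 0.709 FPKM in A549 against 0.896 ± 0.0287 in A549/cDDP in cisplatin, ARC, an activity-regulated gene, at 15.6 ± 0.463 and 0.625 ± 0.00345, and TNFRSF14, a receptor of the TNF family, at 6.96 ± 0.2 and 0.104 ± 0.0235. LCE1F, a late cornified envelope gene, was listed at 0 in A549 in solvent and read 15.4 and 14.2 FPKM in cisplatin, against 0.357 and 0.155 in A549/cDDP. In the other direction stood EXOC4, of the exocyst, SLIT3, a guidance ligand, BMPER, a BMP regulator, TNS1, a focal adhesion gene, P4HA3, a collagen hydroxylase, HJURP, the chaperone of centromeric histone, and PAQR4. EXOC4 read 76.7 and 76.2 FPKM in A549 in solvent and 7.86 and 6.7 in cisplatin, and 56.6 and 58.4 in solvent and 44.5 and 39.8 in cisplatin in A549/cDDP, and SLIT3 had group means of 9.24, 0.185, 6.79 and 5.62 FPKM in that order. At these genes the A549 libraries in cisplatin were the low ones. RSPO3, a WNT enhancer, and THBS1, thrombospondin, did not pass in solvent and were higher in A549/cDDP in cisplatin, with 193 ± 8.24 and 65.3 ± 1.22 FPKM against 62.2 ± 2.17 and 21.1 ± 1.9.

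Several of these genes are long, and the difference between the lines in cisplatin followed the span of a gene on the genome. Protein-coding genes under 10 kb had a median log2 difference of -0.077 (2451 genes), and those of 10 to 30, 30 to 100 and 100 to 300 kb had -0.018, 0.037 and 0.16. The 448 genes over 300 kb had a median of 0.69, with 69.2% higher and 15.0% lower, against 38.8% and 35.4% of all 12966 protein-coding genes. In solvent their median was 0.031, within the range of the shorter classes. Within each line, cisplatin against solvent, the genes over 300 kb had a median change with cisplatin of -0.76 in A549 and -0.20 in A549/cDDP. These 3 comparisons share libraries. EXOC4 spans 814 kb, SLIT3 639 kb, SPOCK1 623 kb and UTRN, the dystrophin relative utrophin, 567 kb. UTRN read 34.2 and 35.2 FPKM in A549 in solvent and 10.3 and 10.1 in cisplatin, and 36 and 35.4 in solvent and 28.3 and 28.9 in cisplatin in A549/cDDP. Of the damage-induced genes named as lower, CDKN1A spans 11 kb, FDXR 11 kb and MDM2 43 kb. The members called higher, PERP, SPATA18, CCNG2 and ABCA12, span 19, 46, 276 and 207 kb. PERP and SPATA18 are thus about as short as the lower genes named here. Spans of the other lower members are not set beside them, and a link of span to these calls was not tested. Genes are not independent replicates, and no p-value is given for the span.

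Differences also ran along chromosomes, with and without the drug. Chromosome X had the lowest median, -0.45 over 485 genes, with 62.1% lower, and chromosome 10 followed at -0.31 with 53.6% lower. The highest medians were on chromosome 21 (0.39, 50.5% higher), chromosome 18 (0.26) and chromosome 17 (0.25). In solvent the medians of X, 10 and 21 were -0.36, -0.19 and 0.41. By windows of 10 Mb, chromosome X from 150 to 160 Mb was lowest at -0.82, with 53 of 64 genes lower and a solvent median of -0.75. It holds IRAK1, a signalling kinase (256 ± 0.698 and 113 ± 7.05 FPKM in A549 and A549/cDDP), and BCAP31, an endoplasmic reticulum chaperone (337 ± 10.2 and 176 ± 4.11). In X from 110 to 120 Mb, 18 of 23 genes were lower, and SLC25A5, the ADP/ATP carrier, went from 711 ± 2.23 to 189 ± 12.7 FPKM. In X from 130 to 140 Mb, 24 of 31 were lower, and AIFM1, a mitochondrial oxidoreductase, went from 69.9 ± 4.21 to 24.9 ± 1.36. The window of chromosome 1 from 200 to 210 Mb, which holds ELF3 and ELF3-AS1, had a median of -0.58 with 57 of 88 genes lower, and -0.38 in solvent. At the upper end, 17 of 21 genes of chromosome 21 from 20 to 30 Mb were higher and 1 lower (median 0.86, 0.96 in solvent). APP, the amyloid precursor, stood there at 266 ± 0.54 and 719 ± 4.34 FPKM and BACH1, a repressor of antioxidant genes, at 30.8 ± 0.909 and 74.3 ± 1.42.

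**Figure D5:**
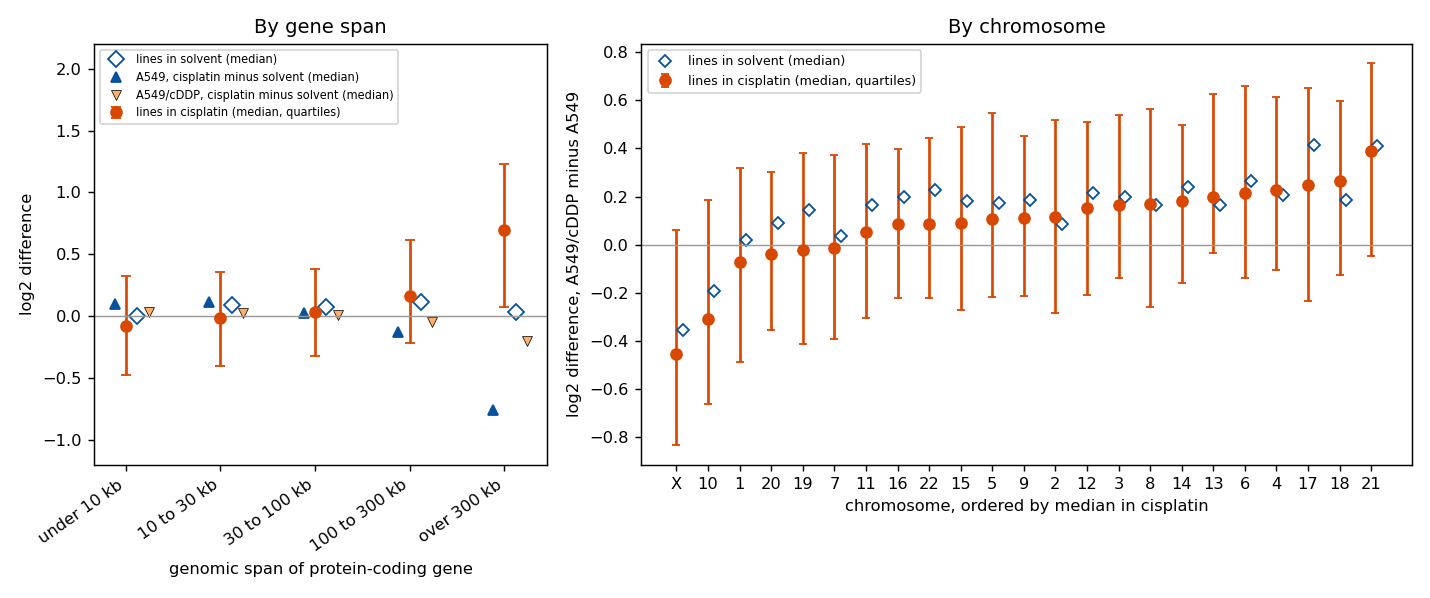
Left, median log2 difference of protein-coding genes by genomic span: the lines in cisplatin (circles with quartiles), the lines in solvent (diamonds), and cisplatin minus solvent within A549 and within A549/cDDP (triangles). Right, the median difference between the lines by chromosome in cisplatin (circles with quartiles) and in solvent (diamonds); genes over 300 kb have a median of 0.69 in cisplatin and 0.031 in solvent, and chromosome X is lowest in both conditions.

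Some genes were read in 1 line alone. In cisplatin, 20 genes were listed at 0 in both A549 libraries and at 1 FPKM or more in both A549/cDDP libraries, 9 of them protein-coding, and 13 had the reverse pattern, 6 of them protein-coding. CXCL12, the chemokine ligand of CXCR4, read 1.98 and 2.13 FPKM in A549/cDDP. That is at least 305-fold higher than the level of 3 reads over both A549 libraries. FLI1, an ETS transcription factor, L3MBTL4, a chromatin reader, and ZNF85, a zinc finger gene of chromosome 19, were named after their values were seen, with means of 1.81, 1.66 and 1.58 FPKM. In the other direction, USH1C, a scaffold of microvilli, read 9.45 and 8.12 FPKM in A549, so that A549/cDDP was at least 1081-fold lower by the same floor, and FGL1, a secreted ligand of liver and tumour cells, read 3.27 and 3.08 and was at least 263-fold lower. Such floors reflect counting error alone, as PCR duplicates of a molecule are not separate observations.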

How the data were processed

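RNA was enriched with oligo(dT) and sequenced, per the labels' protocols. The submitters' processing notes name TopHat2, HTSeq 0.6.1 and hg38; the annotation release and strand setting are not given in the sources used here. The deposited values are FPKM per gene, computed by the authors for all 16 libraries. One limma fit (limma 3.58.1, R 4.3.3; 8 groups of 2 libraries, trended prior) on log2(FPKM + 0.5) covered the 17198 of 60448 identifiers whose mean over the 16 libraries reached 0.5 FPKM; 56868 had a GENCODE 29 model. It gave the line difference in cisplatin, that in solvent and the difference of both, each adjusted by Benjamini-Hochberg at 0.05, and was tested on simulated data.

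Depth was estimated with GENCODE 29 exon lengths as 31350000 to 43140000 fragments; 70.2 to 75.6% of low values were then whole reads within 0.02, so no count test was run and depth is approximate. At 0, a floor of 3 reads over both libraries was used.

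The comparison, the gene lists and the rule for named genes were chosen with earlier results of these data known, so no list is independent evidence of its direction. The text names genes central to the study, the 12 widest called differences each way at 5 FPKM or more without overlap, up to 4 called members each way per list, the 8 widest each way called in the opposite direction or not called in solvent, the 6 highest listed at 0 in 1 line, and the 5 highest of each chromosome window. Others are marked as named after their values were seen. Alternatives were the pseudocount (0.1, 1), the filter, the scaling, the libraries fitted, a replicate block, the prior and leaving out each library. Promoters come from RefSeq (GRCh38.p14).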

Additional observations from a re-analysis of the deposited data

Results flagged for a closer look

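In the 19 genes given here, chosen among the genes central to the study and the widest differences in cisplatin that were opposite in solvent, the lines stood in opposite called orders in cisplatin and in solvent, and the difference of both line differences was itself called by limma. On the log2 scale that difference (cisplatin minus solvent) was -5.00 for CEACAM1, -4.98 for NECTIN4, -4.85 for SAA1, -4.36 for RRAD, -4.33 for GRHL3, -4.02 for SERPINF1, -3.96 for CDKN1A, -3.92 for PTAFR, -3.73 for DQX1, -3.73 for MDM2 and -0.33 for TOP1. It was 3.85 for IL11, 3.58 for SLIT3, 2.87 for EXOC4, 2.62 for HJURP, 2.58 for PAQR4, 2.43 for TNS1, 2.27 for BMPER and 1.95 for P4HA3. For TOP1 the order in solvent rests on a small difference of 0.104 that passed narrowly (limma adjusted p = 0.0443). Whether it holds under another scaling was not examined. Other genes of the text, such as GDF15, BTG2, PLK1 and HES2, were also in opposite called orders.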

How the results depend on the processing

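Of 209 tested genes named in the text, 187 had a value under all 14 alternatives, and 177 of these kept call and direction; 21 of the 22 others kept them wherever a value existed. These counts concern the line difference in cisplatin alone. Calls in solvent and of the interaction were not compared across the alternatives, so opposite orders in solvent were not checked this way. The median ratio factors in solvent were 0.884 and 0.89 in A549 and 1.011 and 1.012 in A549/cDDP. In cisplatin they lay closer, at 0.942 and 0.935 in A549 and 1.003 and 1.014 in A549/cDDP. The calls lost in cisplatin were those of PERP, SPATA18, CCNG2, ABCA12, ITGB7 and, in the fit of 4 libraries, KRT7. The counts of 6363 higher and 5074 lower genes stayed within 5101 to 6636 and 4531 to 6015 over the alternatives that keep all libraries, and within 5666 to 5895 and 4571 to 4717 when each library was left out. At least 2-fold differences ranged over 1530 to 1630 higher and 965 to 993 lower without each library. A replicate block gave 6329 higher and 5038 lower. Same-numbered libraries did not deviate together (correlation 0.006 between the groups compared), so the numbers do not pair the samples. Direction turned for genes that had not passed: CXCL8 was at -0.080 after median ratio scaling and over -0.053 to 0.102 without each A549/cDDP library, ABCB1 at -0.106 and NQO1 at 0.077 after quantile normalization. The cause was not tested. Each group holds 2 libraries, and genes at 0 are limited by depth.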

Other observations

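Signalling by Notch, WNT and TGF-beta ligands had no common direction: 16 of 40 genes were higher in A549/cDDP in cisplatin and 15 lower (median -0.01), with 12 and 11 of them in the same direction in solvent. BMP7, a ligand of the TGF-beta family, stood at 0.888 ± 0.117 FPKM in A549 against 9.62 ± 0.132 in A549/cDDP, TCF7, a nuclear effector of WNT, at 3.86 ± 0.364 and 21.4 ± 0.318, and WNT7A, a ligand, at 0.361 ± 0.113 and 3.75 ± 0.0835. DKK1, a secreted WNT inhibitor, was lower at 473 ± 14.9 and 163 ± 7.48 FPKM. HES2 and NKD2 were higher in solvent and lower in cisplatin.

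Of 14 iron genes, 5 were higher and 5 lower. LCN2, the siderophore binder lipocalin, read 23.1 and 25.9 FPKM in A549 against 4.31 and 3.82 in A549/cDDP (log2 difference -2.45 ± 0.094 SE, limma adjusted p = 3.48e-10), and SLC40A1, the iron exporter ferroportin, was lower at 32 ± 0.539 and 10.9 ± 0.728 FPKM. Among 18 long noncoding RNAs linked to damage, 8 were higher and 7 lower, but 5 higher without A549 replicate 1 or without A549/cDDP replicate 2. MEG3 went from 74.1 ± 0.385 to 188 ± 17.2 FPKM and PURPL, a p53-induced RNA, from 73.5 ± 3.71 to 132 ± 3.34, with solvent differences of 3.05 and 2.95.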
